A study of Mus musculus with 7 samples.

Results

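The genes described here are 35 lysosomal genes, out of 55401 genes counted in mouse lung. They were listed by name as known lysosomal genes, with earlier results of these data in view, and comprised 8 cysteine cathepsins, 2 aspartic cathepsins, 2 serine peptidases, legumain, 8 glycosidases, 7 lipid hydrolases or lipid carriers, 5 membrane proteins and 2 transcription factors. The RNA came from right lung lobes, 1 library per mouse, of 4 mice given bleomycin alone (BLM) and 3 given bleomycin and then hyperbaric oxygen (BLM+HBO). All were male C57BL/6 mice aged 6 to 8 weeks that received a single intratracheal dose of bleomycin, an antibiotic that injures the lung and leads to fibrosis, and mice that lost too little weight were not kept in the model. The mice were randomized on day 7 and their lungs collected on day 21. HBO is oxygen breathed under pressure, given here at 2.5 ATA for 90 min per day in 14 exposures. The sample records place the BLM mice in the chamber without pressurized oxygen, whereas the methods call them untreated. No mice without bleomycin were analysed here, so the levels below compare 2 groups of injured lungs.

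Lysosomes are acidic compartments that break down proteins, sugars and lipids taken up by endocytosis or delivered by autophagy. Cathepsins and legumain cut proteins there, glycosidases remove sugars, and small carrier proteins present lipids to their hydrolases. In fibrotic lung these genes are used heavily by macrophages, and cathepsin K, best known from osteoclasts, is a collagenase that fibroblasts and macrophages can also make. TFEB and MITF are related transcription factors that bind E-boxes with the letters CACGTG and can switch on many lysosomal genes together.

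Because these factors read a short sequence, the promoters of the genes were searched for CACGTG, which reads the same on both strands. RefSeq promoters on GRCm38.p6, each 300 bases from 250 before to 50 after a start of transcription, were held for 30 of the 35 genes and not for Npc1, Ctse, Ctsb, Ctsh or Asah1. CACGTG lay in a promoter of 10 of these 30 genes (33.3%), against 8.09% of all genes in the table and 10.8% of the tested genes in it. The 10 were Ctsa, Ctsd, Ctsf, Ctsl, Lgmn, Gla, Glb1, Naglu, Lamp1 and Mcoln1. With a T in front (TCACGTG, searched on both strands and always overlapping CACGTG) the count was 8 of 30 genes (26.7%). The shares were 4.29% of all genes in the table and 6.40% of the tested genes in it. Lamp1 held 4 copies within 61 bases of its start. These matches describe letters in a window and are not measured binding. The 250 bases before the start are printed for Ctsk, in whose window the letters did not occur, for Lgmn and for Ctsd, and shorter windows for Ctsa, Ctsl and Gla, all of them genes that were lower in BLM+HBO below. Capitals mark CACGTG, and each sequence runs 5′ to 3′ on the strand of its gene. For Lgmn, which had more than 1 listed start, the start is the only one whose promoter held the letters. The printed bases of Lgmn, Ctsa and Ctsl lie inside the annotated spans of their genes, and those of Ctsd partly so. The starts used for these genes are therefore not their outermost annotated ones.
Ctsk (chr3:95498960-95499209, plus strand): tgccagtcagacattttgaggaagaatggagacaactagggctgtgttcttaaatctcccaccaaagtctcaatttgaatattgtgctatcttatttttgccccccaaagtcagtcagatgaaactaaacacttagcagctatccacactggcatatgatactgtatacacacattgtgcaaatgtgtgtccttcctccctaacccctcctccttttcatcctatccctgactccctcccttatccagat
Lgmn (chr12:102439093-102439342, minus strand): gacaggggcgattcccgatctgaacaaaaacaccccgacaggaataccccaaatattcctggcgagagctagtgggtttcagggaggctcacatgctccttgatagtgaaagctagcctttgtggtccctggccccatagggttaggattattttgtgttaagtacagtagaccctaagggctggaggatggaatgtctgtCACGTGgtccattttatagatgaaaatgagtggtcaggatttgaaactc
Ctsd (chr7:142387828-142388077, minus strand): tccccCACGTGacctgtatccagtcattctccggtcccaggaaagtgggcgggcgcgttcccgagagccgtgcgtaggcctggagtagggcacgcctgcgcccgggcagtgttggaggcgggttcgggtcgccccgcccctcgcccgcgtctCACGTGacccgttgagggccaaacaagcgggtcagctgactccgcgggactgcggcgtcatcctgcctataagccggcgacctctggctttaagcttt
Ctsa (chr2:164833758-164833787, plus strand): tgtCACGTGatgcagatgctCACGTGacca
Ctsl (chr13:64370739-64370768, minus strand): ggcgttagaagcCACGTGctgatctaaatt
Gla (chrX:134601182-134601244, minus strand): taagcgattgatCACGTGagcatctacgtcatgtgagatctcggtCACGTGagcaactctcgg
Ctsd held its copies 245 and 98 bases before the start, Lgmn its copy 49 bases before it, and Ctsa 1 copy on each side of the start. Of the 12 genes called lower below, 10 had a promoter in the table and 5 of these held CACGTG, beside 5 of the 20 other genes. Lamp1, with 4 copies, and Mcoln1, with 2, were among these others. The 12 were picked by their difference and the counts are small. A link of the letters to the lower calls was not tested.

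Library totals ran from 18157161 to 26365969 counts, and within each group the libraries differed by more than sampling noise. Every one of the 35 genes passed the filter on low counts that left 17465 genes, with between 59 counts (lowest mouse, Ctse) and 51106 counts (highest mouse, Psap). Levels are given in CPM, that is counts scaled by the normalized size of each library. Differences are log2 fold changes of BLM+HBO against BLM from edgeR's quasi-likelihood test, fitted over all tested genes, and a gene is called lower or higher where its unadjusted P is below 0.05. Adjusted P values are by the Benjamini-Hochberg method over all tested genes. In a principal component analysis, BLM+HBO 2 lay nearest to the BLM mice, so counts are also given without this mouse. On the first component it was at -1.0, closer to BLM 3 (-6.6) and BLM 4 (-6.1) than to its own group. BLM 1 and BLM 2 were at -47.6 and -31.3, and BLM+HBO 1 and BLM+HBO 3 at 54.8 and 37.8. BLM+HBO 2 was picked from these same values, so higher counts without it are no separate support for a difference. Markers of alveolar type 2 cells, which are particular to lung, were high in every mouse, with sums of 9019 to 16476 CPM in BLM and 11443 to 28037 CPM in BLM+HBO.

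Lysosomal genes were lower in BLM+HBO far more often than higher. At P below 0.05, 12 of the 35 genes were lower, against 5.54% of all tested genes, and 0 were higher, against 5.11%. The mean was lower in BLM+HBO for 32 of the 35, where 48.8% of all tested genes had a lower mean, and the median log2 fold change was -0.24 against 0.01 over all tested genes. The 3 genes with a higher mean were Tpp1, Ppt1 and Mcoln1. With a fold change above 1.5 as well, which is the rule of the study, 3 genes remained (Lgmn, Ctsk and Ctsl), against 2.89% of all tested genes. After adjustment, edgeR called 0 of the 35 genes and 0% of all tested genes, with adjusted P between 0.423 and 0.446 for the 12 called genes, while DESeq2 called 1 (Lgmn, adjusted P = 0.00931) against 0.462% of the genes it tested in that direction. Limma-trend also called 0 after adjustment. All values of BLM+HBO lay below all values of BLM for 10 of the 35 genes, against 4.72% of all tested genes.

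**Figure D1:**
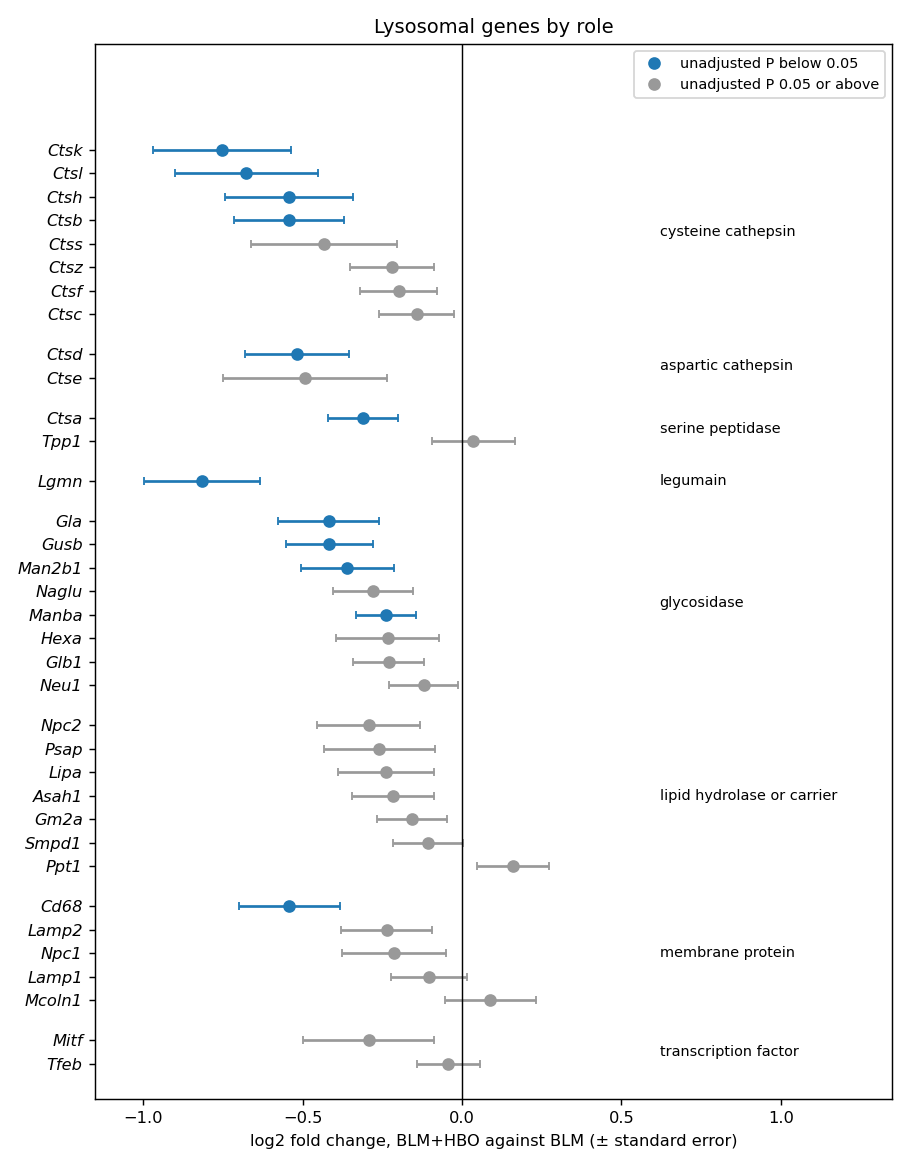
Log2 fold change of BLM+HBO against BLM (x axis) for each of the 35 lysosomal genes, grouped by role, as points with bars for ± 1 standard error. The 12 genes at P below 0.05, in blue, lie between -0.82 (Lgmn) and -0.24 (Manba), and 3 points lie above 0.

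Together the 35 genes took 1.44% ± 0.07 of all counts in BLM (SD, n = 4), and in BLM+HBO they took 1.17% ± 0.17 (SD, n = 3). The single values were 1.41%, 1.40%, 1.55% and 1.42% in BLM 1 to 4 and 1.04%, 1.36% and 1.10% in BLM+HBO 1 to 3. Every BLM+HBO mouse was below every BLM mouse, and BLM+HBO 2 was only just below. When counts were first divided by gene length, the groups overlapped, at 1.40% in BLM+HBO 2 and 1.37% in BLM 2.

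Among the cysteine cathepsins, 4 of 8 were lower at P below 0.05 (Ctsk, Ctsl, Ctsb and Ctsh). Ctsk (chromosome 3, 95499256 to 95509362, plus strand, GRCm38), the collagenase of bone resorption, stood at 162, 236, 206 and 147 CPM in BLM 1 to 4 and at 86.4, 148 and 99.8 CPM in BLM+HBO 1 to 3. BLM 2 was the highest mouse, and the groups met only where BLM+HBO 2 reached the level of BLM 4. Relative to BLM the mean of Ctsk was at 59.3%, a difference of -0.75 on the log2 scale (standard error 0.22), and Ctsk was called. That Ctsk was lower was known from earlier results of these data, so its call is no separate support. Its neighbour 17423 bases away, Ctss, is the cathepsin that antigen-presenting cells use to process the invariant chain, and it showed 1062, 894, 1307 and 1049 CPM in BLM and 688, 1125 and 583 CPM in BLM+HBO. In Ctss, BLM+HBO 1 and 3 lay below all BLM mice while BLM+HBO 2 lay above 3 of them, and the log2 fold change of -0.43 (standard error 0.23) did not pass (adjusted P = 0.533).

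Ctsl (chromosome 13, 64359337 to 64370890, minus strand), a broad endopeptidase, had 565, 448, 685 and 495 CPM in BLM and 271, 476 and 282 CPM in BLM+HBO. BLM+HBO 2 was above BLM 2 and below the other BLM mice. The log2 fold change was -0.68 (standard error 0.23). Ctsb, which cuts from the carboxyl end as well as inside proteins, had 1657, 1389, 1576 and 1450 CPM in BLM and 848, 1317 and 962 CPM in BLM+HBO. These groups did not overlap (log2 fold change -0.54, standard error 0.17). Ctsh, an aminopeptidase that also takes part in maturing surfactant protein in alveolar type 2 cells, had 945, 906, 868 and 618 CPM in BLM and 438, 711 and 569 CPM in BLM+HBO. Only BLM 4, the lowest BLM mouse, was passed by BLM+HBO 2 (log2 fold change -0.54, standard error 0.20).

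The other cysteine cathepsins differed less. Ctsz, a carboxypeptidase, had 270, 292, 320 and 323 CPM in BLM and 224, 303 and 249 CPM in BLM+HBO, with BLM+HBO 2 inside the BLM range (log2 fold change -0.22, adjusted P = 0.578). Ctsf had 26.8, 33.3, 28.7 and 27.1 CPM in BLM and 23.4, 25.8 and 26.4 CPM in BLM+HBO. Its groups did not overlap, yet BLM+HBO 3 and BLM 1 were close, and the test did not pass (log2 fold change -0.20, adjusted P = 0.585). Ctsc, the dipeptidyl peptidase that activates the serine proteases of neutrophils and mast cells, had 476, 463, 387 and 466 CPM in BLM and 427, 383 and 409 CPM in BLM+HBO. Here BLM 3 was as low as the BLM+HBO mice, and the log2 fold change of -0.14 (adjusted P = 0.687) was the smallest of the 11 cathepsins.

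Of the cathepsins of other catalytic classes, Ctsd and Ctsa were lower at P below 0.05. Ctsd, the main aspartic protease of lysosomes, had 1286, 1335, 1490 and 1348 CPM in BLM and 755, 1161 and 945 CPM in BLM+HBO, without overlap (log2 fold change -0.52, standard error 0.16). Ctsa, a serine carboxypeptidase that also shields β-galactosidase and neuraminidase, had 327, 325, 337 and 320 CPM in BLM and 244, 294 and 253 CPM in BLM+HBO. The BLM mice lay close together, and all BLM+HBO mice were below them (log2 fold change -0.31, standard error 0.11). Ctse, an aspartic protease of endosomes, was near the lower end of what was counted, with 4.85, 3.38, 3.29 and 4.16 CPM in BLM and 3.14, 2.87 and 2.36 CPM in BLM+HBO. Its groups did not overlap but lay close, and the test did not pass (log2 fold change -0.49, standard error 0.26, adjusted P = 0.526). Tpp1, a serine tripeptidyl peptidase, ranged from 153 to 206 CPM over both groups, with a log2 fold change of 0.04 (adjusted P = 0.943). In all, 6 of the 11 cathepsins were lower at P below 0.05 and all 11 had a lower mean.

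Lgmn (chromosome 12, 102394084 to 102439813, minus strand) encodes legumain, an asparaginyl endopeptidase that matures several cathepsins, and had the lowest P of the 35 genes. It stood at 619, 564, 607 and 489 CPM in BLM and at 265, 425 and 281 CPM in BLM+HBO. No BLM+HBO mouse reached the lowest BLM mouse. The BLM mean was 570 ± 58.4 CPM (SD, n = 4). That of BLM+HBO, 324 ± 88.1 CPM (SD, n = 3), was 56.8% of it. The log2 fold change was -0.82 with a standard error of 0.18.

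**Figure D2:**
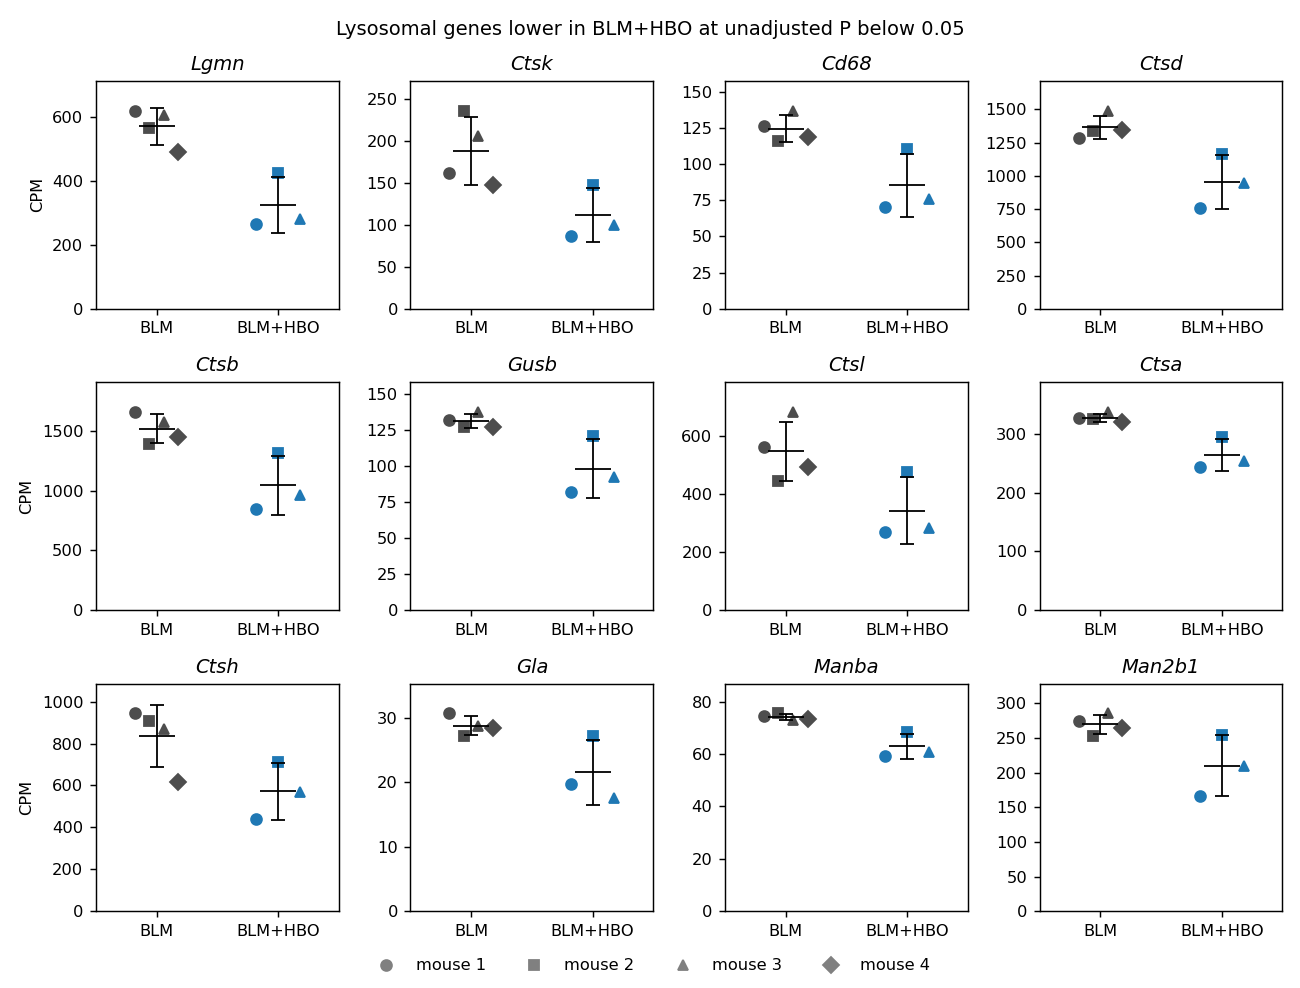
CPM (y axis, from 0) in each mouse for the 12 lysosomal genes lower in BLM+HBO at P below 0.05, with the mean and ± 1 SD as black lines (n = 4 BLM, n = 3 BLM+HBO). The square of BLM+HBO 2 is the highest of its group in all 12 panels, and in 7 of the 12 the groups do not overlap.

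Of the glycosidases, 4 of 8 were lower at P below 0.05 and all 8 had a lower mean. Gusb, the β-glucuronidase that trims glycosaminoglycans, had 132, 127, 137 and 127 CPM in BLM and 81.6, 121 and 92.1 CPM in BLM+HBO, without overlap (log2 fold change -0.42, standard error 0.14). Gla, the α-galactosidase of glycosphingolipid breakdown, had 30.7, 27.2, 28.7 and 28.4 CPM in BLM and 19.8, 27.2 and 17.6 CPM in BLM+HBO. BLM+HBO 2 was level with the lowest BLM mouse, and the other two BLM+HBO mice were well below (log2 fold change -0.42, standard error 0.16). Among these 8 glycosidases, the mannosidases Man2b1 and Manba were lower as well. Man2b2, a mannosidase of the further lists below, was not called (log2 fold change -0.15, adjusted P = 0.640). Man2b1, an α-mannosidase, had 275, 253, 286 and 265 CPM in BLM and 166, 255 and 210 CPM in BLM+HBO. For Man2b1, BLM+HBO 2 was just above BLM 2 (log2 fold change -0.36, standard error 0.15). Manba, the β-mannosidase, had 74.6, 75.5, 73.0 and 73.5 CPM in BLM and 59.4, 68.4 and 60.7 CPM in BLM+HBO. The BLM values of Manba spread by 1.55% of their mean, and no BLM+HBO mouse reached them, so a log2 fold change of only -0.24 (standard error 0.09) passed. Naglu, which removes N-acetylglucosamine from heparan sulfate, was also without overlap but did not pass (59.7 to 65.3 CPM in BLM, 42.2 to 58.7 CPM in BLM+HBO, adjusted P = 0.469). Glb1, Hexa and Neu1, which release galactose, N-acetylhexosamine and sialic acid, had log2 fold changes of -0.23, -0.23 and -0.12 and did not pass, with adjusted P between 0.496 and 0.709.

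None of the 7 lipid hydrolases and carriers passed the test. Npc2, which carries cholesterol inside the lysosome, Psap, the precursor of the saposins, Lipa, the acid lipase, Asah1, the acid ceramidase, Gm2a, the activator for GM2 ganglioside, and Smpd1, the acid sphingomyelinase, had log2 fold changes from -0.29 (Npc2, adjusted P = 0.544) to -0.11 (Smpd1, adjusted P = 0.757). Ppt1, a thioesterase that removes palmitate from proteins, had 83.7 to 94.2 CPM in BLM and 88.8 to 115 CPM in BLM+HBO (log2 fold change 0.16, adjusted P = 0.630).

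Among the membrane proteins, Cd68 was lower while the general lysosomal membrane proteins Lamp1 and Lamp2 did not pass. Cd68, a glycoprotein of macrophage lysosomes, had 126, 116, 137 and 118 CPM in BLM and 70.3, 110 and 75.7 CPM in BLM+HBO. Its groups did not overlap, with BLM+HBO 2 closest to BLM (log2 fold change -0.54, standard error 0.16). Lamp1 had 930, 1010, 900 and 845 CPM in BLM and 827, 886 and 857 CPM in BLM+HBO, and did not pass (log2 fold change -0.10, standard error 0.12, adjusted P = 0.783). Lamp2, an isoform of which is the receptor of chaperone-mediated autophagy, had 566, 536, 433 and 442 CPM in BLM and 403, 472 and 383 CPM in BLM+HBO. BLM+HBO 2 lay inside the BLM range in both Lamp genes, and for Lamp2 the log2 fold change was -0.24 (standard error 0.14, adjusted P = 0.575). The cholesterol exporter Npc1 and the calcium channel Mcoln1 had log2 fold changes of -0.21 (adjusted P = 0.657) and 0.09 (adjusted P = 0.856).

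The 2 transcription factors did not pass the test. Tfeb was level, with 32.7, 36.1, 33.9 and 36.2 CPM in BLM and 34.1, 33.4 and 33.6 CPM in BLM+HBO, all inside the BLM range (log2 fold change -0.04, standard error 0.10, adjusted P = 0.909). Mitf had 22.7, 25.0, 18.3 and 19.5 CPM in BLM and 13.6, 23.4 and 15.3 CPM in BLM+HBO. BLM+HBO 1 and 3 were below all BLM mice and BLM+HBO 2 among the higher ones (log2 fold change -0.29, standard error 0.20, adjusted P = 0.626). These are levels of their RNA and do not report where the proteins were or how active they were.

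**Figure D3:**
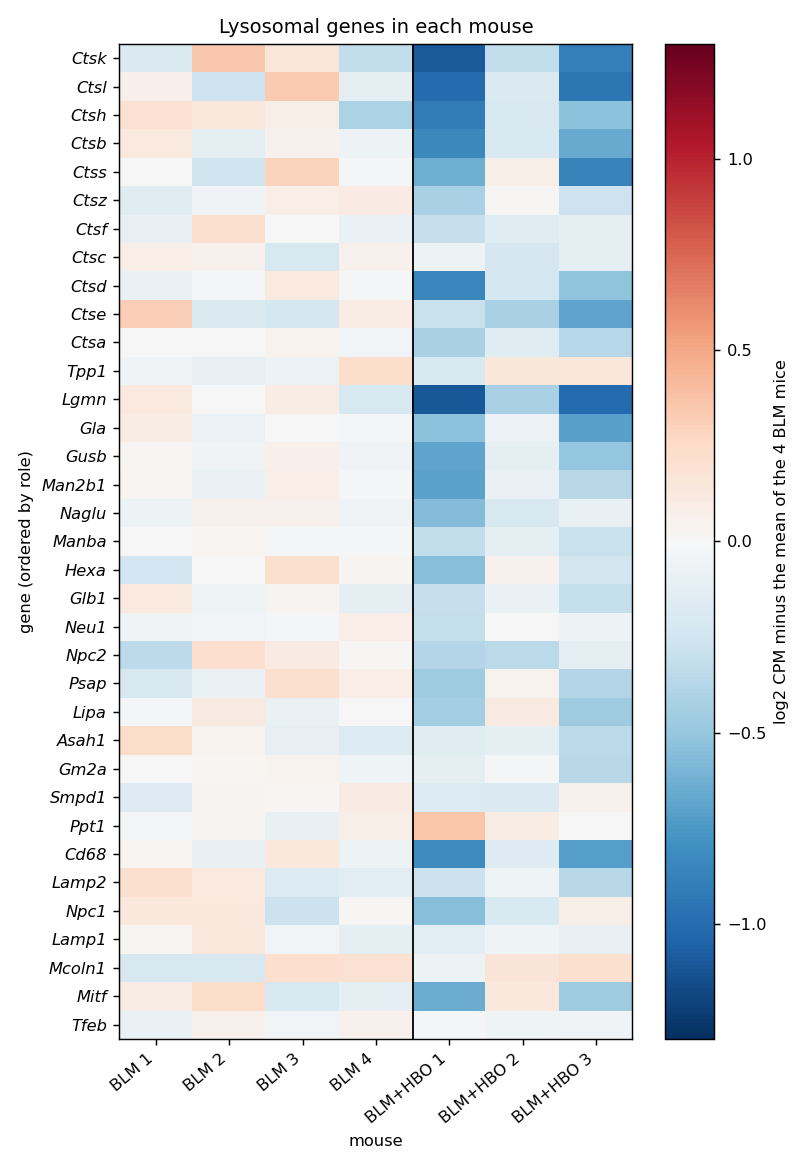
Log2 CPM of each lysosomal gene (rows, ordered by role) in each mouse (columns), minus the mean of the 4 BLM mice for that gene, with blue for lower and red for higher. The columns of BLM+HBO 1 and BLM+HBO 3 are the bluest, down to -1.10 for Lgmn and -1.09 for Ctsk in BLM+HBO 1, and the column of BLM+HBO 2 is paler.

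The 3 BLM+HBO mice did not contribute evenly. BLM+HBO 1 was the lowest of all 7 mice in 22 of the 35 genes and in 11 of the 12 called genes, whereas BLM+HBO 2 was the highest of its group in 24 of the 35 and in 12 of the 12. The median log2 CPM of the 35 genes relative to BLM was -0.42 in BLM+HBO 1, -0.12 in BLM+HBO 2 and -0.36 in BLM+HBO 3. Without BLM+HBO 2, 19 genes were lower at P below 0.05, against 8.46% of all tested genes, and 10 of them had a fold change above 1.5, against 5.41%. In that fit 6 genes passed adjustment (edgeR, adjusted P), against 1.14% of all tested genes in that direction, namely Lgmn (0.0266), Cd68 (0.0308), Ctsl (0.0412), Ctsk (0.0475), Ctsb (0.0494) and Gusb (0.04997). Leaving out the BLM+HBO mouse nearest to BLM also raised the lower calls over all tested genes, from 5.54% to 8.46%. The values of that fit therefore show how far the result hangs on this mouse. Without BLM+HBO 1 the count of lysosomal genes lower at P below 0.05 fell to 5, against 2.89% of all tested genes. Ctsk, Ctsb, Ctsd, Lgmn and Cd68 passed at P below 0.05 whichever of the 7 mice was left out.

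Levels of different genes were compared per length, as counts divided by gene length and scaled to the same total in every mouse (TPM). On this scale Psap and Ctss ranked highest in BLM, at 2641 ± 286 and 2409 ± 352 TPM (SD, n = 4). These first ranks did not differ beyond their spread. Ctsd followed at 1761 ± 73.8, Lamp1 at 1045 ± 70.8, Npc2 at 803 ± 102 and Ctsb at 763 ± 78.4 TPM, and the last pair lay within each other's spread. Ctsk ranked the tenth of the 35 in BLM, at 375 ± 67.3 TPM (SD, n = 4), and after HBO it was at 225 ± 72.9 TPM (SD, n = 3). At the lower end were Tfeb at 18.6 ± 1.12, Ctsf at 17.4 ± 1.36, Mitf at 10.5 ± 1.54 and Ctse at 3.78 ± 0.861 TPM in BLM.

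Whether Ctsk fell more than the other cathepsins was asked with the log2 ratio of Ctsk to each of the other 10 within each mouse, which does not depend on how libraries are scaled. All 10 ratios were lower in BLM+HBO, by between 0.06 (to Ctsl) and 0.63 (to Ctsc) on the log2 scale, but these ratios share Ctsk and are not independent. None of them separated the groups, and none passed a two-sided exact permutation test over the 35 assignments of the mice, whose smallest possible P is 0.0286. The lowest P was 0.0571 for the ratio to Ctsf, whose mean and SD were 2.67 ± 0.19 over the 4 BLM mice and 2.10 ± 0.36 over the 3 BLM+HBO mice (exact permutation test, Benjamini-Hochberg adjusted P = 0.429 over 10 ratios). For Ctsl the difference of the ratio was -0.06 (standard error 0.22, exact permutation P = 1). Against the mean of the other 10 cathepsins, the log2 ratio of Ctsk was -0.91, -0.27, -0.58 and -0.95 in BLM 1 to 4 and -1.20, -0.82 and -1.05 in BLM+HBO 1 to 3. BLM 2 and BLM 3 stood above the BLM+HBO mice, and BLM 1 and BLM 4 lay among them. The group means differed by -0.35, and by -0.21 without BLM 2. By share of the summed TPM of all 11 cathepsins, Ctsk made up 4.29% to 6.96% in BLM and 3.94% to 4.42% in BLM+HBO.

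**Figure D4:**
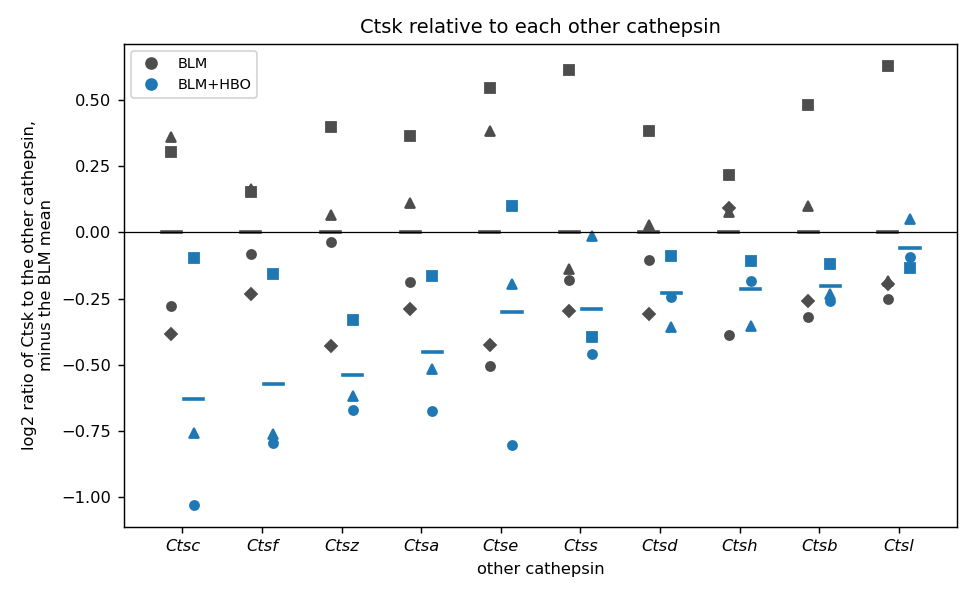
Log2 ratio of Ctsk to each other cathepsin (x axis) in each mouse, minus the BLM mean of that ratio, with symbols for mouse 1 (circle), 2 (square), 3 (triangle) and 4 (diamond) and a bar for each group mean. The BLM+HBO means lie below 0 for all 10, and the symbols of the groups overlap in each column.

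Further lists covered other lysosomal genes, protease inhibitors and regulators of the lysosome. Of their 117 tested genes, 10 were lower at P below 0.05, against 5.54% of all tested genes, and 2 were higher, against 5.11%. The median log2 fold change of the 117 was -0.09. The count of lower genes moved with single mice, as did the share over all tested genes. This count was 4 without BLM 2 (against 3.72%), 5 without BLM+HBO 1 (2.89%) or BLM+HBO 3 (3.39%), and 21 without BLM+HBO 2 (8.46%). Of 40 other hydrolases, 6 were lower, including the exonuclease Pld3 (log2 fold change -0.41, standard error 0.14), and 1 was higher, Plbd1 (0.65, standard error 0.21). Of 22 subunits and accessory proteins of the V-ATPase, the proton pump that acidifies lysosomes, 1 was lower (Atp6v0c, -0.34) and 1 higher (Atp6v1c2, 0.85). Among protease inhibitors 7 of 13 could be tested and 1 was lower, the protease-trapping A2m (-1.40). The membrane list had 1 of 23 lower (Cd63, -0.48) and the list of regulators, with Tfe3 and the mTORC1 scaffold, 0 of 16 by edgeR. No gene of these lists passed adjustment by edgeR or DESeq2.

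The lysosomal genes were lower beside markers of monocytes, some macrophages and fibroblasts. Over all tested genes, 5.54% were lower and 5.11% higher at P below 0.05. A single call in so short a list says little about the direction of that list. Of 12 markers of monocytes and interstitial macrophages, 7 were lower and 0 higher at P below 0.05, among them C1qa (-1.01), and their summed level was 1351 to 2062 CPM in BLM and 801 to 1340 CPM in BLM+HBO. For lipid-associated macrophages, 3 of 8 were lower (Trem2, Spp1 and Apoe), with sums of 6564 to 9967 CPM in BLM and 2907 to 6623 CPM in BLM+HBO. Alveolar macrophage markers were mixed, with 4 of 12 lower, 2 higher and a median log2 fold change of 0.16. Their sums were 1073 to 2475 CPM in BLM and 913 to 1255 CPM in BLM+HBO, most of it in BLM from Chil3, with means of 1014 and 486 CPM. Fibroblast markers were lower in 8 of 11 and higher in 1, with sums of 9815 to 15573 CPM in BLM and 2908 to 10629 CPM in BLM+HBO. BLM+HBO 2 was the highest of its group in each of these lists. For osteoclasts, where Ctsk is best known, 1 of 7 tested markers was lower (Itgb3), and the sums were 228 to 249 CPM in BLM and 166 to 234 CPM in BLM+HBO. Alveolar type 1 and endothelial markers were each lower in 1 of 6 and higher in 0. Neutrophil and erythroid markers had 0 of 5 tested genes called in either direction. Markers of some other cells went the opposite way. B cell markers were higher in 6 of 6, heart muscle markers in 7 of 7, airway markers in 3 of 6, dendritic cell markers in 2 of 6, T and NK cell markers in 2 of 8 and alveolar type 2 markers in 1 of 8, with 0 lower in each of these lists. No marker of these lists was at 0 in every mouse. In these bulk samples, fewer cells of a type and less RNA per cell cannot be told apart, and the part of these cells in the lower lysosomal levels was not tested.

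**Figure D5:**
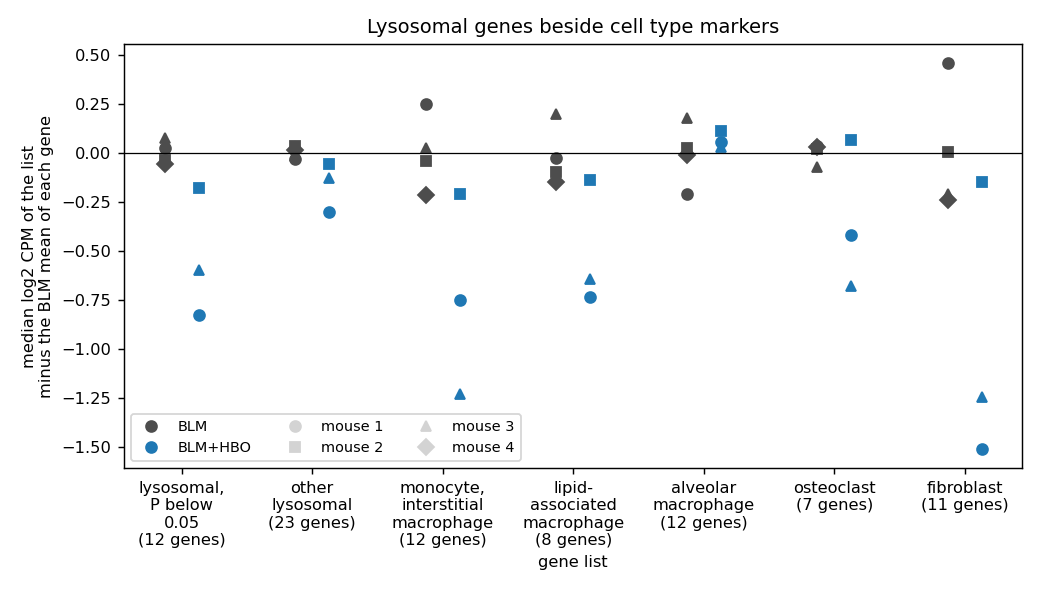
Median log2 CPM of each gene list in each mouse, relative to the BLM mean of each gene (y axis), for the 12 lysosomal genes at P below 0.05, which were picked by this difference, the other 23 lysosomal genes and 5 lists of cell type markers (x axis). BLM+HBO 1 and BLM+HBO 3 lie below the BLM mice in the lysosomal, monocyte, lipid-associated macrophage, osteoclast and fibroblast lists, and BLM+HBO 2 lies closer to them in each.

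How the reads were counted touches some of these genes. Exons of other annotated genes cover more than 10% of the exonic length of 5 of the 35: Ctsd (34.4%, by Gm49369), Ctsl (26.8%), Ctsa (17.4%, by Neurl2 and Pltp), Ctsb (12.8%, by Fdft1) and Hexa (12.8%, by Tmem202). Reads there are left out or cannot be assigned by strand under the stated counting, so the levels of these genes are uncertain by that part. Ctsk and Lgmn share no exonic bases with another gene.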

How the data were processed

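Right lung lobes of 4 BLM and 3 BLM+HBO mice were sequenced as paired ends from NEBNext Ultra libraries on an Illumina NovaSeq. The authors trimmed the reads and mapped them to GRCm38 with HISAT2 (2.2.0 in the submitters' processing notes). They counted them with featureCounts (2.2.0 in those notes, another version in the methods) at default settings. These settings do not use strand and drop reads of several genes. The deposited values are raw counts per gene for 55401 genes. The annotation release is not given in the sources used here, and symbols came from GENCODE vM21, which shares the identifier and version of 54349 genes.

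Genes passed filterByExpr at a minimum count of 10 and a total of 15 and were normalized by TMM and tested with edgeR 4.0.16 (R 4.3.3) by the quasi-likelihood test without covariates. Log2 CPM used a prior count of 2. Each mouse was 1 replicate, grouped by the sample records. Alternatives were DESeq2 1.42.0, limma-trend (3.58.1), RLE and upper-quartile factors, no filter, leaving out each mouse, a replicate block, robust empirical Bayes and 1 CPM in 3 mice. Fits and the permutation test were tested on simulated data. Depth was between 18157161 and 26365969 counts per mouse, and intervals beyond the replicate spread were not computed.

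The genes and lists were chosen with earlier results of these data known. Named with every value were the 11 cathepsins, each other gene at P below 0.05, Lgmn, Lamp1, Lamp2, Cd68, Tfeb and Mitf, and from the other lists up to 3 genes at the lowest P below 0.05. Promoter sequences are from RefSeq, GRCm38.p6, and protein sequences were not used here. Some genes of the other lists are not reported here.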

Additional observations from a re-analysis of the deposited data

Results flagged for a closer look

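Of 46 groups of values examined in the BLM mice, 3 held a mouse whose gap to the nearest other mouse, divided by the range, exceeded Dixon's limit of 0.829 for 4 samples, where chance gives about 1 in 20 groups. For the log2 CPM of Ctsc, BLM 3 stood apart as the lowest (0.871). For the percent of all counts taken by the 35 lysosomal genes, BLM 3 stood apart as the highest (0.870). For the log2 ratio of Ctsk to Ctsl, BLM 2 stood apart as the highest (0.925).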

How the results depend on the processing

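The 12 genes lower at P below 0.05 were all so under the other tools, factors and filters, except Manba with no filter on low counts. Naglu was added by limma-trend, and Ctss and Naglu with no filter. All settings with 7 mice gave 32 genes with a lower mean. Leaving out single mice gave 5 to 19 at P below 0.05, 2 to 10 with a fold change above 1.5, 0 to 6 at adjusted P below 0.05, and 4 to 21 of the genes of the further lists, the highest of each without BLM+HBO 2. The shares of all tested genes lower in these fits moved as well. They ran from 2.89% to 8.46% at P below 0.05, from 1.76% to 5.41% with a fold change above 1.5, and up to 1.14% after adjustment. At adjusted P below 0.05, DESeq2 gave 1 gene, against 0.462% of the genes it tested in that direction. No filter gave 2, where 234 of 32896 genes were lower. Tpp1, at 0.04, ranged from -0.028 without BLM+HBO 3 to 0.14 without BLM+HBO 1, and also changed sign when BLM 2 (-0.00041) or BLM+HBO 2 (-0.020) was left out. The groups share replicate numbers, but same-numbered mice did not all deviate together (correlations -0.01, -0.07 and 0.16). They also did not all correlate best with their own number. The mice were treated as unpaired, though so few pairs cannot exclude a shared batch. With a replicate block, in which BLM 4 has no partner, 10 genes were lower at P below 0.05 (9 of the 12 with Naglu, against 5.64% of all tested genes), 6 had a fold change above 1.5 (against 3.36%), and the difference in the log2 ratio of Ctsk to the other cathepsins was -0.44. Over single genes and settings, 483 values kept direction and side of the threshold, 25 lost it, 14 gained it and 3 changed sign, and the cause was not tested. Depth limited Ctse most among the 35, with 59 to 88 counts per mouse.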
